A study of Drosophila melanogaster with 4 samples.

Results

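The peaks described here are the regions of the X chromosome, outside the broad (br) locus, that were called as bound by GFP-tagged Abd-B in Drosophila melanogaster larvae. All peaks listed on X were taken except those whose midpoint lay from 1450000 to 1562000, the interval around br. This left 435 of the 480 peaks on X, or 14.8% of the 2949 peaks in the whole list. All positions are on FlyBase release 5. The data are chromatin immunoprecipitation sequencing (ChIP-seq), which reads out the DNA fragments that an antibody pulls down with a protein, and consist of 2 Abd-B-GFP ChIP libraries and 2 libraries of input DNA. Both groups are wandering L3 larvae of the strain Abd-B-GFP, genotype w; PBac{y[+]-attP-3B}VK00037. All libraries, input included, carry a transgene of the Abd-B genomic coding region in which GFP takes the place of the stop codon. The ChIP used a rabbit polyclonal antibody against GFP, and the labels name no untagged larvae. The titles of all libraries carry the term vMock, without saying what the mock was. The sex of the larvae is labelled unknown, so how many copies of X the chromatin held relative to the autosomes is not known. The collection protocol names y; bw cn sp flies, a stock other than the strain label.

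Abd-B is the Hox transcription factor that sets the identity of the most posterior body segments in flies. Hox proteins bind DNA through a homeodomain, which recognises short AT-rich motifs that are common in the genome, and often together with cofactors such as Extradenticle. Abd-B acts in the posterior abdomen, including the genital disc and the abdominal epidermis, so in chromatin of whole larvae the share of cells in which a region was bound and the strength of binding per cell cannot be told apart. The X chromosome is present as a pair in females and singly in males, where the dosage compensation complex raises its transcription.

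Each peak has a position and 1 score, the authors' own value from peak calling, whose scale the file does not name. There is no value per library, so no value below has a replicate error, the depth is unknown, and a stretch without peaks cannot be called unbound. Intervals are 95% intervals that take peaks as independent, although neighbouring peaks share their surroundings. No test was run over peaks, since peaks of 1 list are not replicates. No genome or annotation of release 5 was used here, so the peaks and runs are given by position, without gene names or sequences.

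The 435 peaks were spread over nearly the whole of X, from 160035 to 22415360. They amounted to 19.5 peaks per Mb (exact Poisson interval 17.7 to 21.4) and covered 0.807% of the chromosome outside br. The median width was 340 bp (order-statistic interval 323 to 368), with quartiles at 258.5 and 487 bp. Widths ranged from 200 bp, shared by 8 peaks, to 2397 bp. The median score was 14.5 (13.3 to 15.6), with quartiles at 11.0 and 22.0 and a range of 6.2 to 146. Most peaks scored low: 310 of the 435 had a score of at most 20, 24 scored above 50 and 5 above 100.

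In blocks of 5 Mb, peaks were densest in the first block and sparsest in the last, which is shorter. The first 5 Mb held 133 peaks, or 27.2 per Mb (interval 22.8 to 32.2). They were uneven within it, with 15 peaks from 0 to 1 Mb, 45 in the 0.888 Mb left from 1 to 2 Mb around br, and 17 from 4 to 5 Mb. The stretch from 5 to 10 Mb held 96 peaks (19.2 per Mb), that from 10 to 15 Mb 83 (16.6 per Mb) and that from 15 to 20 Mb 102 (20.4 per Mb). Beyond 20 Mb only 21 peaks remained, or 8.69 per Mb (5.38 to 13.3). These last peaks were narrow, with a median width of 270 bp. Their median score, 13.1, was close to the 13.3 of the stretch from 10 to 15 Mb. None of the 21 scored above 50, as against 24 of all 435, too few peaks to compare. Over the first 5 Mb the median score was 13.7 and the median width 380 bp, so the higher density there did not come with higher scores.

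In windows of 1 Mb the count varied several-fold. The 21 windows that were complete held 8 to 35 peaks, with a median of 17. The fullest complete window ran from 19 to 20 Mb with 35 peaks, followed by those from 2 to 3 Mb and from 3 to 4 Mb with 28 each. The window from 1 to 2 Mb is shortened by the br interval, yet its remaining 0.888 Mb held 45 peaks, a density of 50.7 per Mb. The emptiest complete windows were those from 14 to 15 Mb and from 15 to 16 Mb, with 8 peaks each, and that from 20 to 21 Mb, with 9. Windows with many peaks did not have high scores as well. Across the 21 complete windows the count and the median score had a Spearman's rho of 0.17 and a Pearson's r of 0.04, given as a description over windows of 1 list. The median score was 12.7 in the window from 19 to 20 Mb and 17.9 in the one from 15 to 16 Mb. The median of single windows reached 19.8, from 9 to 10 Mb, where only 11 peaks lay.

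**Figure D1:**
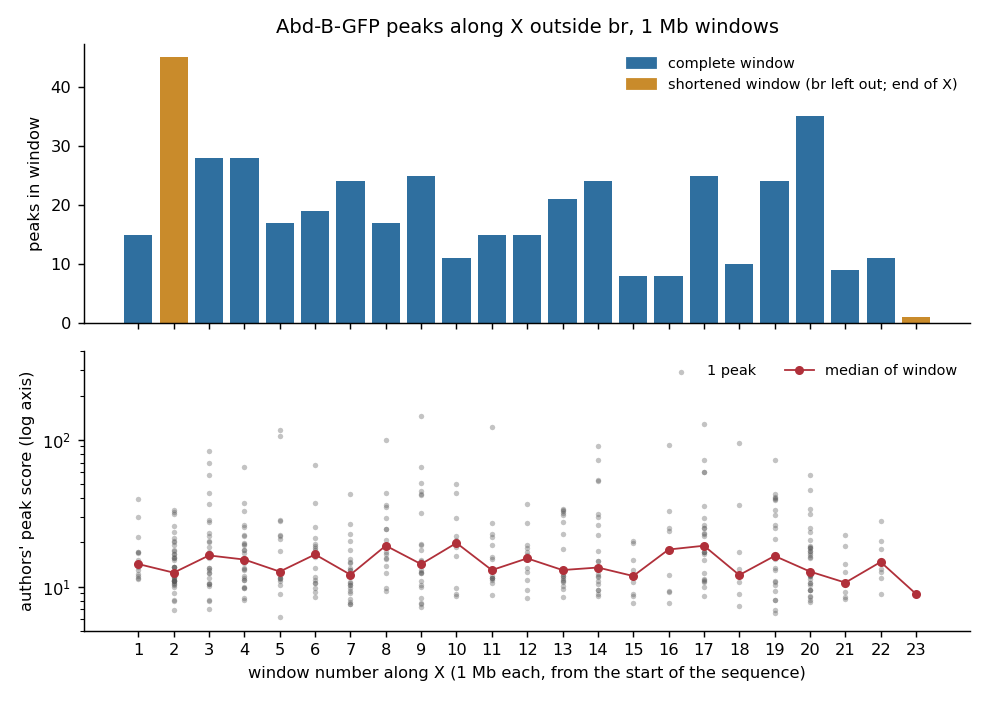
Peaks on X outside br in windows of 1 Mb, numbered from the start of the sequence. The upper panel gives the number of peaks per window and the lower panel the score of every peak (log axis) with the median of each window; window 2 holds 45 peaks although br is left out, and the lowest complete windows, 15 and 16, hold 8 each.

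The peaks that border the br interval were of ordinary size. The last 3 before it started at 1406843, 1411674 and 1417525, with scores of 12.7, 17.6 and 11.2. The first 3 after it started at 1585566, 1589850 and 1667969, with scores of 9.06, 13.6 and 11.0. The nearest peaks that the rule left out started at 1454969, with a score of 12.1, and at 1554300, with a score of 11.5. No peak lay within 20 kb outside either edge, the nearest midpoints being 32.3 kb before and 23.8 kb after it. Within 500 kb of the edges there were 21 peaks before br and 32 after it, densities of 42 and 64 per Mb. Nearer by the sides differed. Within 100 kb there were 5 peaks before br and 2 after it, or 50 and 20 per Mb, and within 250 kb 48 and 36 per Mb. The high density after br thus lay mostly farther out. The highest scores within 500 kb were 33.4 before br and 84.0 after it.

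Neighbouring peaks lay at very different distances. The gaps between them had a median of 18.3 kb, quartiles of 4.08 and 61.0 kb, and ranged from 56 bp to 510 kb. Of the 433 gaps, 42 (9.70%) were at most 500 bp, and 67 (15.5%) were above 100 kb. The longest gap followed base 20396154 and ended at 20906629. The next longest lay from 21942156 to 22415122, 473 kb, so both fall in the sparse end of X. Others of 435, 422 and 418 kb followed bases 11923080, 9058201 and 9784084.

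**Figure D2:**
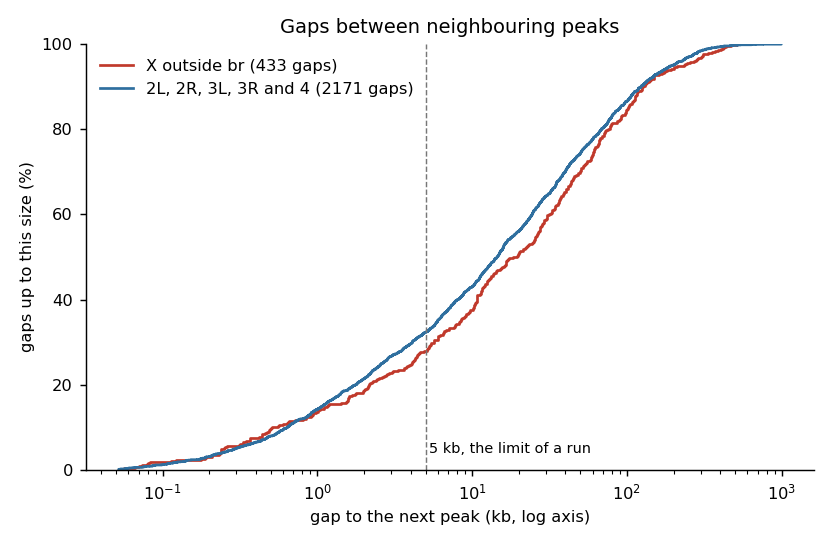
Share of gaps between neighbouring peaks (%) that are at most the size on the x axis (kb, log axis), for X outside br and for the other arms together. The curve of X lies below that of the other arms from 1 to 100 kb, with median gaps of 18.3 kb on X outside br and 14.5 kb on the other arms.

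A run was defined as peaks in a row whose gaps are all at most 5 kb. By this definition 191 of the 435 peaks (43.9%, exact binomial interval 39.2 to 48.7) lay in 70 runs, and 244 were isolated. Most runs were short: 46 held 2 peaks, 9 held 3 and 9 held 4. Only 6 held 5 or more, 36 peaks in all. The runs of 2 peaks had a median gap of 1141 bp between the peaks, and in 16 of the 46 it was at most 500 bp. With peaks under 1 kb apart merged, 28.5% of the peaks lay in runs and only 1 run still held 5 or more, so these counts depend on closely spaced calls.

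Peaks in runs and isolated peaks had similar median scores and slightly different widths, but high scores were more frequent in runs. The median score was 13.7 in runs, with quartiles at 11.1 and 24.2, and 14.9 for isolated peaks, with quartiles at 11.0 and 20.4. The median width was 376 bp in runs and 321.5 bp for isolated peaks. Scores above 50 were found in 9 of the 92 peaks in runs of 2 (9.78%), in 0 of 27 in runs of 3 and in 6 of 36 in runs of 4 (16.7%). They were found in 2 of 36 peaks in runs of 5 or more (5.56%) and in 7 of 244 isolated peaks (2.87%). Over all runs they were 17 of 191 peaks (8.90%), and all 5 peaks above 100 lay in runs. These are few peaks. In 28 of the 70 runs the highest score was at least 2 times the lowest, and in the others the scores lay closer together. The highest peak of each run had a median score of 22.1 and a median width of 458 bp (71 peaks, since 1 run has a tie), against 12.0 and 325 bp for the other 120. This split uses the score itself, so the difference in score follows from it. Across neighbours with gaps of up to 5 kb the scores had a Spearman's rho of 0.14 (121 neighbour pairs), and with longer gaps 0.05 (312 pairs). These are weak, and neighbours share their stretch of chromosome.

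Of the 6 runs of 5 or more peaks, 3 lay in the first 5 Mb and none between 5 and 10 Mb. They are numbered here from the start of X. Run 1, from 1832876 to 1848591, held 8 peaks in 15.7 kb, with gaps from 66 bp to 3788 bp. In order along the chromosome its scores were 9.99, 6.91, 10.3, 11.9, 16.7, 12.3, 13.7 and 11.5. Of these, 7 lie below the X median of 14.5, so the run has many weak peaks and no strong one. Only 1 of its 8 peaks is among the 1474 peaks that score highest in the whole list. Its widest peak, of 921 bp, started at 1845125. A run of 3 peaks followed after 8.52 kb.

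Run 3, from 3634970 to 3645471, also held 8 peaks but in 10.5 kb, and it was of another kind. Its scores were 22.5, 25.6, 11.1, 65.2, 9.82, 8.31, 15.7 and 26.3 in order, so a single peak stood far above the rest. That peak ran from 3638490 to 3639001 and was 512 bp wide. The broadest of the run, 1620 bp, started at 3635966 and scored 25.6, and only 3 peaks on X outside br were wider. Peaks covered 37.9% of run 3, against 22.2% of run 1. A broad isolated peak of 1887 bp, from 3621638 to 3623524, lay 11.4 kb before run 3.

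Run 4 was the most compact. From 11539367 to 11542166 it held 5 peaks in 2.8 kb, with gaps of only 79 to 240 bp, and peaks covered 76.9% of it. Its scores were 15.6, 15.6, 9.44, 11.2 and 13.3, with no peak far above the rest. Their median, 13.3, lay near the X median of 14.5, and the lowest score lay below the X lower quartile of 11.0. The nearest other peaks lay 101 kb before and 65.9 kb after it, so this cluster stood alone in its surroundings. With peaks under 1 kb apart merged, run 4 became a single peak.

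Run 5, from 18665839 to 18671331, held 5 peaks in 5.49 kb and began with a strong one. Its first peak, 874 bp wide, scored 72.8, and the others scored 13.0, 16.8, 24.9 and 15.4. The nearest peaks lay 125 kb before and 86.6 kb after it. Run 2, from 2194885 to 2201700, and run 6, from 19047157 to 19053035, were weak and narrow. Run 2 had scores of 12.3, 10.4, 10.1, 20.0 and 10.4 and a median width of 283 bp. Run 6 had scores of 11.3, 11.8, 25.1, 12.1 and 12.4 and a median width of 258 bp. The 6 runs thus include some with 1 peak well above the others and some with none.

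**Figure D3:**
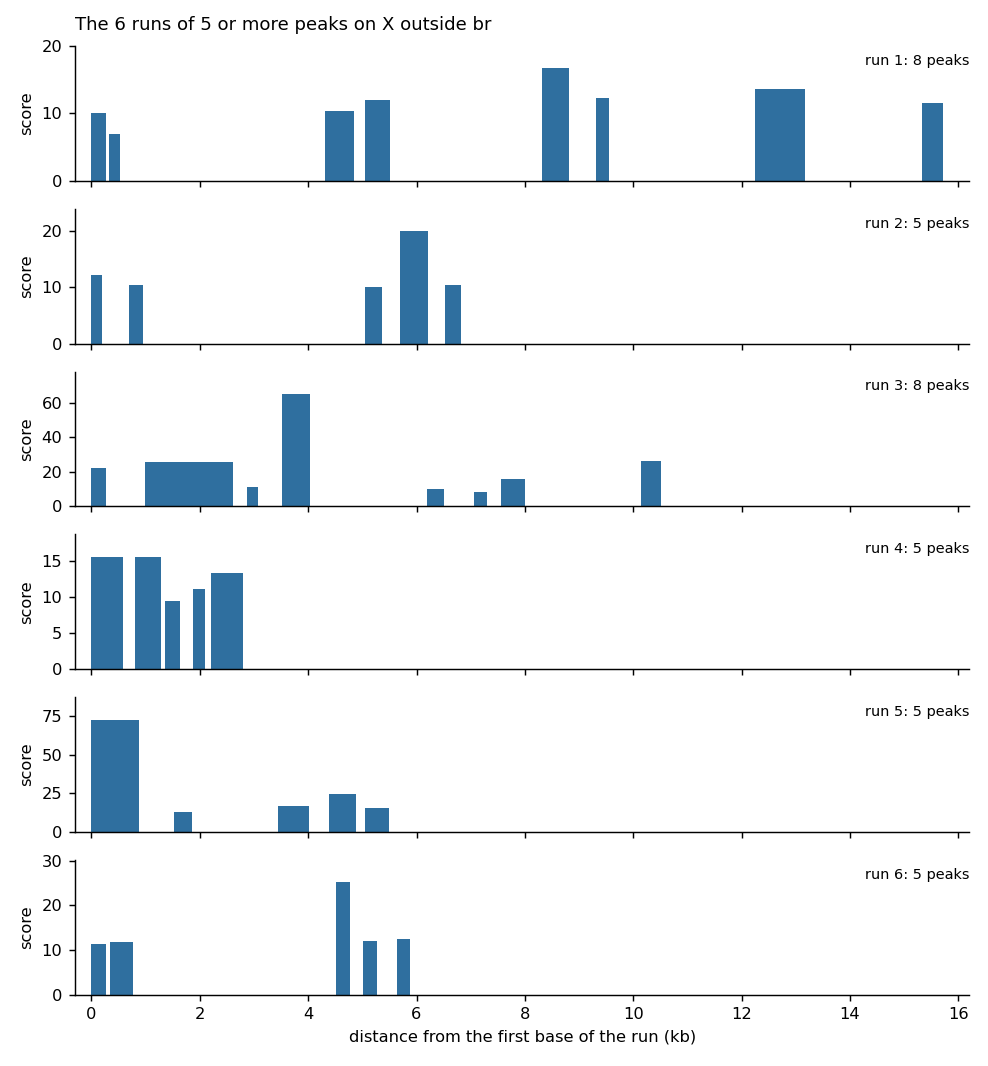
The 6 runs of 5 or more peaks on X outside br, each drawn from its own first base (kb). Each block is 1 peak, as wide as the peak and as high as its score, with a separate score axis per run; runs 3 and 5 hold 1 peak far above the others (65.2 and 72.8), while run 1 stays at or below 16.7.

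The strongest run was shorter. Chosen after its values were seen, a run of 4 peaks from 13880324 to 13889437 had scores of 73.3, 53.4, 52.4 and 90.5. Its median score, 63.3, was the highest of all runs of 3 or more peaks on X outside br, and all of its peaks were 569 to 727 bp wide. A run of 3 from 18323599 to 18328820 came next, with a median of 39.1, and then a run of 4 from 2965379 to 2974958, with a median of 35.4.

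The strongest single peak, 976 bp wide and scoring 146, lay between 8189275 and 8190250. It had a neighbour 0.81 kb before it, from 8187699 to 8188464, which scored 65.6. The second strongest, with a score of 127, spanned 16041559 to 16042503 and too had a strong neighbour, at 59.9, starting at 16042961. The third spanned 10709601 to 10710044 and was only 444 bp wide although it scored 122. These 3 peaks lay far apart on the chromosome, each with 1 companion close by.

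The peaks ranked 4 and 5 by score formed a pair of their own, 1111 bp apart. The stronger, at 4320644 to 4321221, scored 117 and was 578 bp wide. The other, at 4318956 to 4319532, scored 105 and was 577 bp wide. The remaining 5 of the 10 highest started at 7201424 (score 98.9), 17720840 (94.7), 15705633 (91.6), 13888869 (90.5) and 2017111 (84.0). Of the 10 highest peaks 7 lay in runs, none of them in a run of 5 or more, and 3 were isolated. They came from 9 different 1 Mb windows, so high scores were not gathered in 1 place on X. One of the isolated ones, from 15705633 to 15706539, lay in one of the emptiest windows, 101 kb after its left neighbour and 335 kb before its right one.

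Width and score went together, but the widest peaks were not the strongest. The rank correlation of the 2 values (Spearman's rho) was 0.60 across the 435 peaks. Both values come from the same peak call, so they are not separate measurements. The median width was 254 bp for the 68 peaks with scores up to 10, 320 bp for the 242 from 10 to 20, and 499 bp for the 101 from 20 to 50. It was 635 bp for the 19 from 50 to 100 and 578 bp for the 5 above 100, so the width did not go on increasing at the top. All of the 10 highest-scoring peaks were wider than the median, at 444 to 976 bp, but none was among the 5 widest. The widest peak, 2397 bp, lay from 323267 to 325663, scored 39.2 and was isolated. The others among the 5 widest started at 3621638 (1887 bp, score 17.6), 3312846 (1657 bp, score 36.9), 3635966 (1620 bp, score 25.6) and 8821816 (1554 bp, score 42.5). Of these 5, 3 lay between 3 and 4 Mb. In all, 8 peaks were wider than 1 kb.

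**Figure D4:**
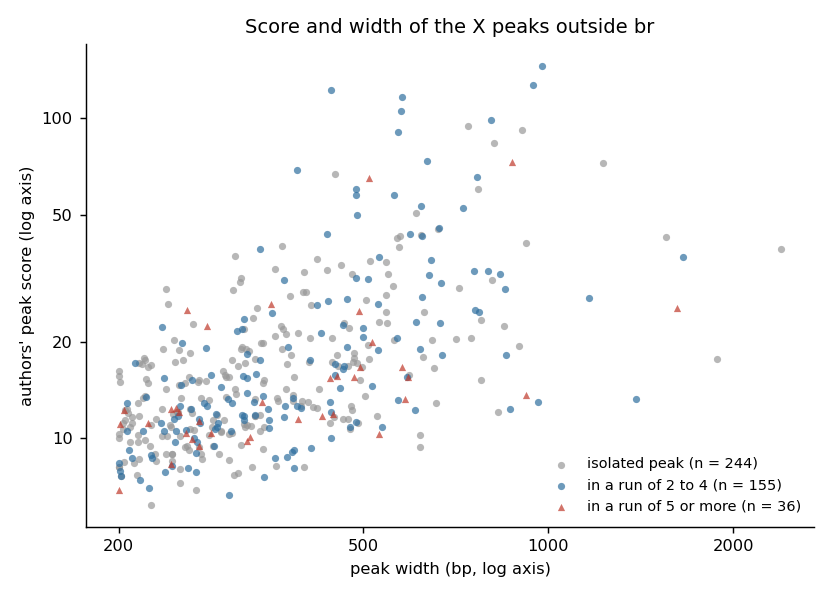
Score against width (both log axes) of the 435 peaks on X outside br, by whether a peak was isolated, in a run of 2 to 4 or in a run of 5 or more. Scores increase with width up to about 1000 bp, the 5 peaks above a score of 100 are 444 to 976 bp wide, and the 5 widest peaks score 17.6 to 42.5.

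The density of X outside br lay within the range of the other arms, 2L, 2R, 3L, 3R and 4. It had 19.5 peaks per Mb (17.7 to 21.4), against 22.3 (21.4 to 23.3) on those arms together, a ratio of 0.87 (0.79 to 0.96, from the interval of the X count alone). The sides are not alike, since X is counted here without its densest locus while 3R keeps its run of 55 peaks. With the br peaks kept the ratio was 0.96 (0.88 to 1.05), and with that 3R run left out instead it was 0.90 (0.81 to 0.98). The arms themselves spread widely, from 14.8 on 4 and 17.2 on 2L to 22.0 on 3L, 25.0 on 3R and 25.1 on 2R. Counting only the 1474 strongest peaks of the list gave a ratio of 0.99 (0.87 to 1.13), and the 737 strongest gave 1.06 (0.87 to 1.29). A lower density on X than on the other arms is therefore not a steady feature of these data.

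The share of peaks in runs was 43.9% (39.2 to 48.7) on X outside br, against 50.0% (47.9 to 52.2) on the other arms together, a difference of -6.1 percentage points (-10.9 to -1.3, from the interval of X alone). Single arms gave 46.1% on 2L, 50.0% on 2R, 51.9% on 3L, 50.4% on 3R and 65.0% on 4. This difference was negative in every setting tried, but its size depended on the setting. It was -0.88 (-5.4 to 3.7) with the br peaks kept, -4.8 (-9.6 to -0.04) with the run of 55 peaks on 3R left out, and -2.8 (-7.2 to 1.8) with gaps up to 2 kb. It was -2.5 (-8.5 to 3.9) for the 1474 strongest peaks and -2.4 (-10.8 to 7.2) for the 737 strongest. X outside br held 6 runs of 5 or more, or 0.27 per Mb (8 runs with br kept). The other arms together held 24, or 0.25 per Mb, 12 of them on 3R. Single arms spread widely, with 0.13 per Mb on 2L, 0.19 on 2R, 0.16 on 3L, 0.43 on 3R and 0.74 on 4, which held 1 such run. The 36 peaks in the runs of 5 or more on X outside br had medians of 348 bp in width and 12.4 in score. The 203 such peaks on the other arms had 459 bp and 14.3, 55 of them from the 1 run on 3R. Without that run the other arms had 447.5 bp and 14.3 (148 peaks). With br kept, X had 448.5 bp and 12.8 (78 peaks), so the narrower width on X rests on leaving br out. The longest run held 8 peaks on X outside br, against 7 on 2L, 2R and 4, 12 on 3L and 55 on 3R.

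Widths of X outside br were close to those of the other arms, and its median score was slightly higher than on each of them but 4. The median score was 14.5 (13.3 to 15.6) on X outside br and 13.3 (13.0 to 13.7) on the other arms together, with overlapping intervals. Single arms had medians of 13.6 on 2L, 13.3 on 2R, 13.0 on 3L, 13.3 on 3R and 25.7 on 4, which has only 20 peaks. The median width was 340 bp (323 to 368) on X outside br and 341.5 bp (334 to 351) on the other arms. Of the peaks on X outside br, 223 (51.3%, 46.5 to 56.1) were among the 1474 strongest of the list, against 982 (45.1%, 43.0 to 47.2) on the other arms. That share was 46.3% on 2L, 45.1% on 2R, 44.3% on 3L, 43.8% on 3R and 90.0% on 4. Scores above 100 were found in 5 of 435 peaks on X outside br and in 8 of 2176 on the other arms. These 13 peaks are few, and peaks are not replicates, so the shares are given without a test.

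**Figure D5:**
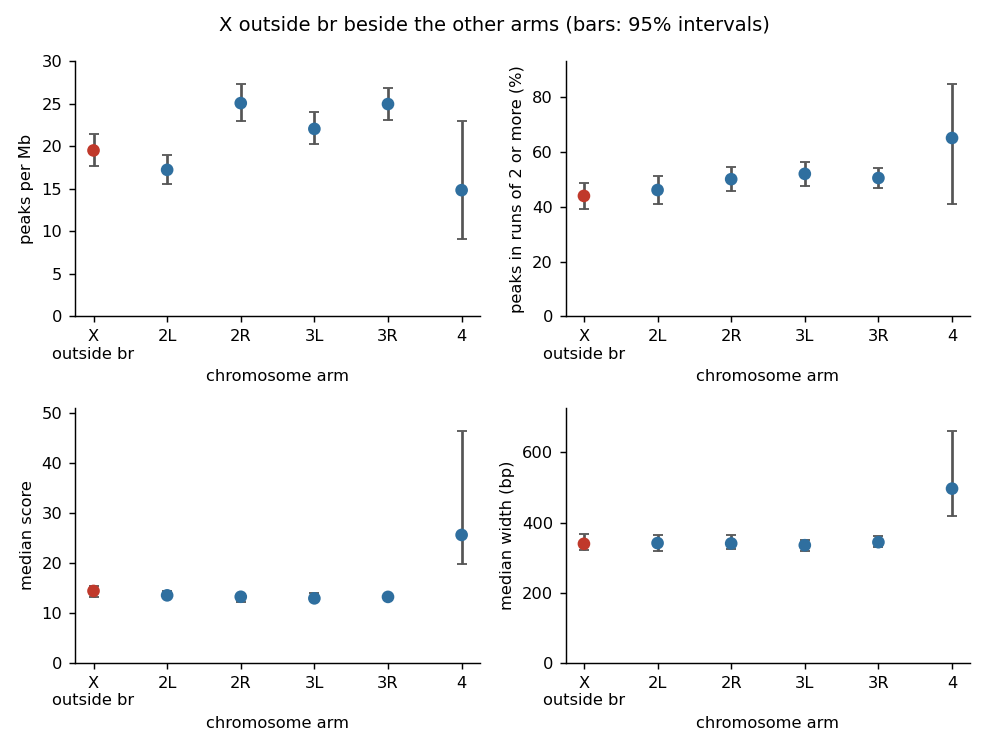
Peaks per Mb, percent of peaks in runs of 2 or more, median score and median width for X outside br and the arms 2L, 2R, 3L, 3R and 4. Points are values and bars 95% intervals that take peaks as independent; X outside br lies between 2L and 3L in density (19.5 peaks per Mb) and has the lowest share of peaks in runs (43.9%), with an interval that overlaps those of all the other arms.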

How the data were processed

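Per the file headers, the deposited peak list is in GFF version 3 with positions on FlyBase release 5. Its second column gives MACS as the source. MACS2, BWA, the build BDGP5 and CASAVA, in versions 1.7.0.2 and 1.7.0.3, are listed in the submitters' processing notes. The titles speak of a mock (vMock) and 2 libraries are input, but which of these the peak caller took as control, its parameters, and any pooling of the ChIP replicates are not stated in the sources used here. The score is the authors' own value per peak. It served for description, ranking and filtering inside this list. Because the lowest start is 0, 1 was added to each start.

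Python 3.11.15 with pandas 2.3.3, numpy 2.4.6, scipy 1.17.1 and matplotlib 3.10.9 was used. The length of an arm was the end of its last peak, less the br interval on X. Runs never crossed br. Run finding and median intervals were checked on simulated data, and merging on a small made-up example. Named by rule were the runs of 5 or more peaks, the 10 highest-scoring and 5 widest peaks, and the 3 fullest and 3 emptiest complete windows. The members, the rule and the alternatives were chosen with earlier results of these data known. Genes were not placed, since the gene table is on release 6.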

Additional observations from a re-analysis of the deposited data

How the results depend on the processing

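No paired analysis was possible because the list holds no value per library, and no replicate could be left out. Counting only the 1474 strongest peaks, X outside br held 223 peaks, 10.0 per Mb, with a median width of 454 bp, a median score of 21.4 and a rho of 0.52. Of these, 30.0% lay in runs, the longest run was 5, 1 run reached 5 peaks, the fullest window held 18, and the density ratio to the other arms was 0.99. With the 737 strongest it held 104 peaks, 4.66 per Mb, with 545.5 bp, 32.9 and a rho of 0.34. There 27.9% lay in runs, the longest run was 4, 0 runs reached 5, and the fullest window held 11. The density ratio changed side to 1.06 and the median width difference from the other arms to 3.5 bp, against -1.5 bp as deposited. Cutting on score lowers counts by construction.

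Merging peaks under 1 kb apart gave 16.9 peaks per Mb, 28.5% in runs, a longest run of 5, 1 run of 5 or more and a width difference of 3 bp. With the br peaks kept, the share in runs was 49.2%, 0.88 percentage points below the other arms (-0.88), the longest run was 33, the fullest window held 90 and the width difference was 10 bp. With gaps up to 2 kb, 32.4% lay in runs, the longest run was 5 and 2 runs reached 5. With gaps up to 10 kb, 56.3% lay in runs. Of the 84 values recomputed, 49 kept their side and stayed within the interval of the value as deposited or, for counts, within 1.5 times of it. Of the rest, 31 moved beyond that and 4 changed side relative to the other arms. Some differences from the other arms moved by more than 1.5 times and still lay inside the interval of the value as deposited. The score difference was 1.15 as deposited, 0.47 with the 1474 and 0.495 with the 737 strongest peaks. In the other direction, it was 1.7 (0.115 to 2.975, from the interval of X alone) with peaks under 1 kb apart merged. The width difference was -9.5 bp with the 1474 strongest. The difference in the share in runs was -2.5, -2.4 and -2.8 percentage points with the 1474 strongest, the 737 strongest and gaps up to 2 kb, against -6.1 as deposited. Placement near gene starts was not run, for want of a release 5 annotation.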
